A study of Danio rerio with 6 samples.

Results

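The dorsal organizer genes described here are dharma, gsc, chrd, nog1, noto, lhx1a, tob1a and sp5l. They were taken from the array by name, by an older symbol (flh for noto) or, where the design gave no name, by a map marker. This found 11 of the 38489 targets of the array: 3 for lhx1a, 2 for gsc and 1 for each of the other genes. A target is a transcript or cluster that the array measured with a set of probes, and each of the 11 had 12 probes. The RNA was extracted from whole zebrafish embryos of the sphere stage, when blastula cells have recently begun to transcribe their own genome. The embryos carried no mutation named in the labels. A control group was injected with a control morpholino (control-MO) and is labelled with the phenotype normal. The other group was injected with nanog-like-MO1 and is labelled with a gastrulation defect. Sphere stage embryos have not begun gastrulation, so this label does not describe their state at sampling. Each group had 3 arrays, from separate cultures per the labels. Injection of an oligonucleotide is therefore common to both groups, and neither the dose nor the way nanog-like-MO1 acts on its transcript is given in the sources used here.

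A morpholino is a synthetic antisense molecule that keeps a transcript from being spliced or translated. Here that transcript was nanog-like, now nanog, a homeobox factor that the mother loads into the egg. In zebrafish the dorsal side is set by maternal beta-catenin, which enters nuclei on the future dorsal side and switches on dharma and other organizer genes. The organizer then secretes antagonists of BMP, such as Chordin and Noggin, while the repressors Vox and Vent and the ligand Wnt8a hold dorsal genes in check elsewhere. The genes tob1a and sp5l belong to the Wnt side of this circuit more than to the organizer tissue itself. Tob1a is known in zebrafish as a maternal inhibitor of beta-catenin target genes, and sp5l encodes an Sp1-related zinc finger factor that acts downstream of Wnt signals at the margin.

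Among the organizer genes proper, gsc, noto, chrd and dharma had lower levels on all 3 morpholino arrays than on all 3 control arrays, by 2.11-fold for the longer gsc target. The Wnt-responsive gene sp5l went the other way and was 4.08-fold higher. Levels of nog1 and lhx1a overlapped between the groups. None of the 11 targets passed the test over all targets (limma, Benjamini-Hochberg adjusted p under 0.05), against a background of 0.647% of all targets. At an unadjusted p under 0.05 there were 6 of the 11, 5 of them lower and 1 higher, against 10.3% of all targets. Levels of the groups did not overlap for 7 of the 11, with 5 lower against 7.97% of all targets and 2 higher against 7.36%. These counts depend on the scaling: raw intensities gave 0 lower (4.07% of all targets) and 2 higher (5.64%). Median scaling gave 6 lower (10.9%) and 1 higher (4.40%), and centring on reference genes gave 1 lower (2.45%) and 3 higher (16.1%). The 11 targets include both targets of gsc, which share sequence, so they are not independent of each other.

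**Figure D1:**
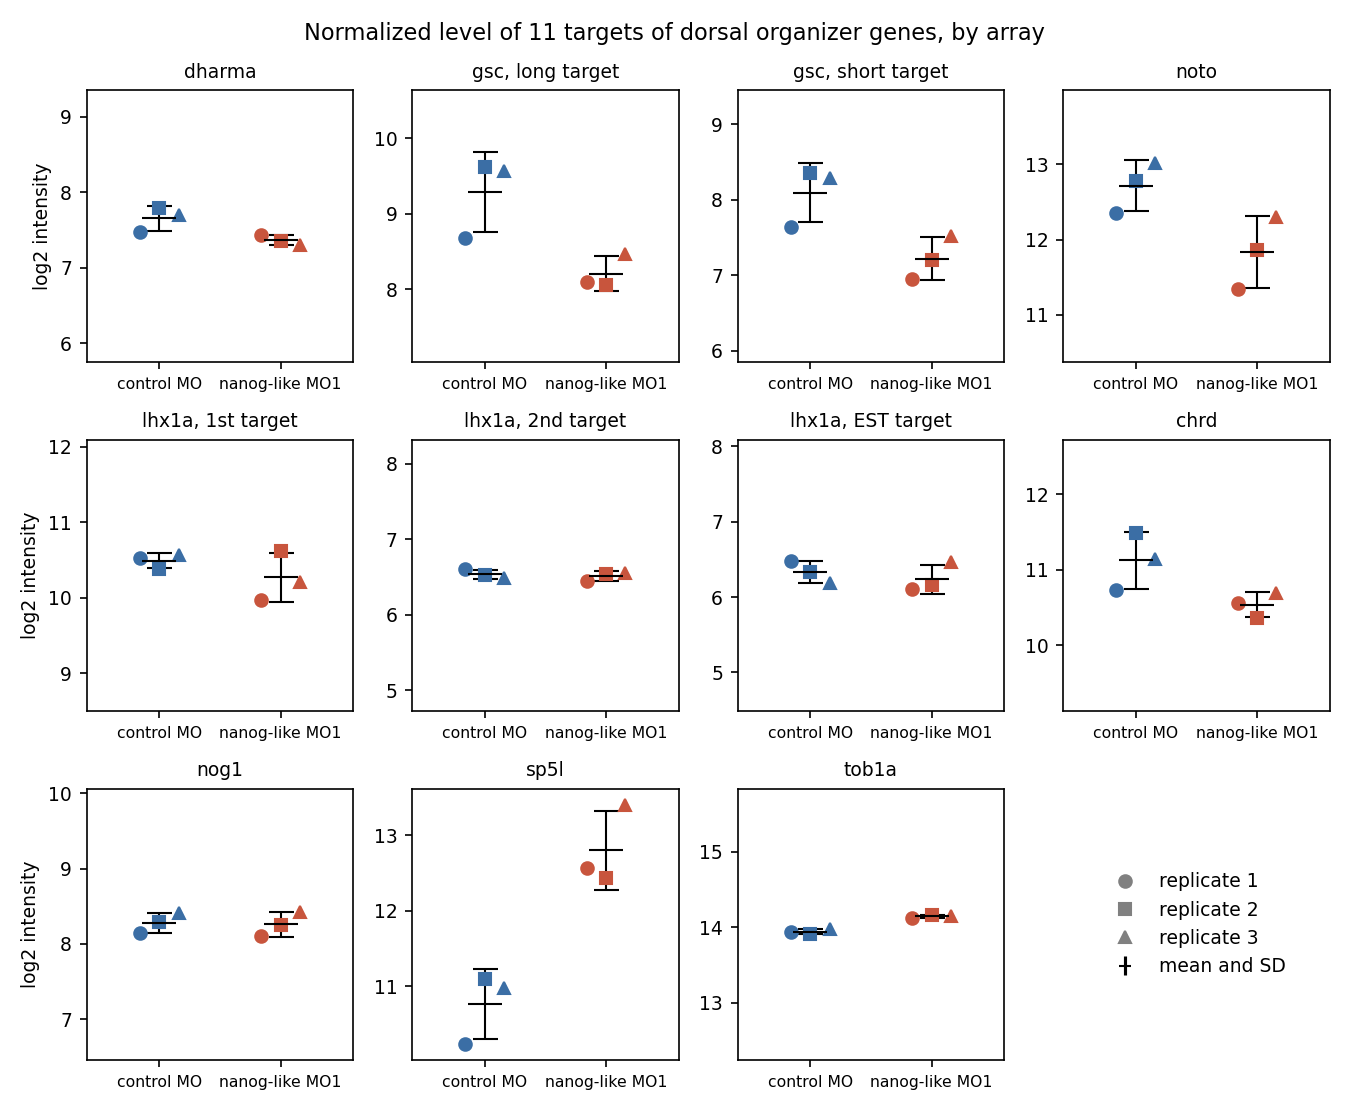
Normalized log2 intensity of the 11 targets in 3 control MO arrays (blue) and 3 nanog-like MO1 arrays (red), with marker shapes for replicate numbers and bars for the group mean and SD; every panel spans the same number of log2 units. The sp5l points lie between 10.24 and 11.09 in control and between 12.43 and 13.40 in morpholino embryos, and the gsc, noto, chrd and dharma points lie lower in morpholino embryos.

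The levels are log2 intensities after background correction and quantile normalization, on which the median target had 8.66 and the 25th percentile of targets was 6.74. They are not comparable between genes, since probes differ in brightness. In whole embryos, fewer cells that express a gene and less RNA per cell cannot be told apart. Before normalization the array medians ran from 408 to 529, the highest on morpholino replicate 3. Raw intensities are not scaled for this. The raw overlap of noto, chrd and both gsc targets given below arises only between morpholino replicate 3 and control replicate 1. Precision is limited by the number of arrays, 3 a group. The level of nanog itself was 14.91 ± 0.06 in control and 14.89 ± 0.06 in morpholino embryos (log2, SD, n = 3), and since it is not given how the morpholino acts, this level is no check of the knockdown. Of 5 early embryo markers 4 were measured, and from 64.5% (zar1) to 99.9% (nanog) of targets were dimmer than these. For the 6 markers of differentiated tissue the share ran from 7.93% (neurod1) to 34.6% (mylpfa). These ranks describe signal only, and since probes differ they do not establish the stage. By the numbers in their labels, morpholino replicate 3 and the control arrays fall in 1 range, whereas morpholino replicates 1 and 2 each have a range of their own, in which range and group cannot be told apart.

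The homeobox gene dharma, also called bozozok, is among the earliest zygotic targets of maternal beta-catenin and encodes a repressor of ventral genes. Its target lies on Zv7 chromosome 15 from 25569360 to 25570563. Control arrays had 7.48, 7.79 and 7.70, and morpholino arrays had 7.44, 7.36 and 7.31 (log2, replicates 1 to 3). The highest morpholino array lay just under the lowest control array. The difference was -0.29 (SE 0.12, 95% interval -0.57 to -0.0020, limma adjusted p = 0.48). The target was dim, with 38.3% of all targets dimmer, and no detection call was used. Targets for the reverse strand had a median of 7.26 and a 75th percentile of 9.87, so the level of dharma is not shown to lie above background, and the size of its difference is uncertain. Its raw intensities of 178 to 251 overlapped between the groups. With the arrays centred on reference genes instead, the difference was -0.07 and the groups overlapped.

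Goosecoid, encoded by gsc, is a homeodomain repressor of the organizer and prechordal plate. Both targets start at 12964423 on Zv7 chromosome 17, and they end at 12966929 and 12966407. The longer target had 8.67, 9.61 and 9.56 on control arrays and 8.10, 8.05 and 8.47 on morpholino arrays (log2, replicates 1 to 3). Control replicate 1 stood well below the other controls and close to morpholino replicate 3, but the groups did not overlap. The difference of -1.08 (SE 0.28, 95% interval -1.74 to -0.41) was the lowest of the 11, with limma adjusted p = 0.242. Without control replicate 1 it was -1.38 with adjusted p = 0.0514, and over the 16 alternatives the adjusted p ran from 0.0514 to 0.679. This target lay lower in morpholino embryos, without overlap, under 5 other background corrections and scalings and in the authors' deposited value table; its raw intensities before any scaling overlapped.

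The shorter gsc target had 7.64, 8.35 and 8.29 on control arrays and 6.95, 7.20 and 7.52 on morpholino arrays. All morpholino arrays again lay below all controls, with a difference of -0.87 (SE 0.24, limma adjusted p = 0.266). Its probes were far less even than those of the longer target. The coefficient of variation over the probes ran from 0.851 to 1.471 for the shorter and from 0.226 to 0.394 for the longer target. In the authors' deposited value table, which holds RMA intensities, the shorter target had log2 levels of 3.58, 3.83 and 3.40 in control and 3.29, 3.34 and 3.71 in morpholino embryos, which overlap, and a difference of -0.16. Its raw intensities overlapped too. The longer target had a difference of -1.40 in the same table, so the size for gsc rests on the longer target. Both gsc targets lay below the 75th percentile of reverse strand targets (9.87) on every array, so that size is uncertain.

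The homeobox gene noto, known as floating head from its mutant, is required for the notochord. Its target spans 12527523 to 12529519 on Zv7 chromosome 13. Control arrays had 12.35, 12.78 and 13.01, and morpholino arrays had 11.34, 11.86 and 12.30 (log2, replicates 1 to 3). The groups were separated by a gap far smaller than the spread within either of them. The difference was -0.88 (SE 0.28, 95% interval -1.55 to -0.21, limma adjusted p = 0.342). Morpholino replicate 3 alone, the array whose number lies in the range of the controls, was -0.42 from the control mean. Raw intensities of noto overlapped between the groups, at 5267 to 7993 in control and 2702 to 5287 in morpholino embryos.

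The LIM homeobox gene lhx1a, also called lim1, is expressed in the organizer and later axial and intermediate mesoderm. Its brightest target, on Zv7 chromosome 15 from 26836778 to 26844389, had 10.53, 10.37 and 10.56 on control arrays and 9.97, 10.62 and 10.21 on morpholino arrays. Morpholino replicate 2 lay above every control array, and the difference was -0.22 (SE 0.18, 95% interval -0.65 to 0.21, limma adjusted p = 0.776). The other targets, 1 on the same chromosome from 26844963 to 26845387 and 1 expressed sequence tag with no position in the design, had levels between 6.10 and 6.60 on all arrays, below the 25th percentile of targets, so they hold little information on lhx1a. Their differences were -0.02 and -0.09.

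Of the secreted BMP antagonists, chrd was lower without overlap and nog1 overlapped between the groups. Neither passed, and no test compared them with each other. Chordin, encoded by chrd, binds BMP ligands outside the cell. The chrd target, on Zv7 chromosome 15 from 40174818 to 40212139, had 10.74, 11.49 and 11.15 on control arrays and 10.56, 10.36 and 10.70 on morpholino arrays (log2, replicates 1 to 3). Morpholino replicate 3 and control replicate 1 were nearly level, and the groups did not overlap. The difference was -0.59 (SE 0.21, 95% interval -1.08 to -0.09, limma adjusted p = 0.396). Raw intensities overlapped, at 1802 to 2986 in control and 1279 to 1844 in morpholino embryos.

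Noggin 1, encoded by nog1, also binds BMP ligands. Its target, on Zv7 chromosome 3 from 2170154 to 2172296, had 8.15, 8.29 and 8.41 on control arrays and 8.10, 8.26 and 8.42 on morpholino arrays. The groups lay on top of each other. The difference was -0.02 (SE 0.13, 95% interval -0.33 to 0.29). The target was dim, with 46.4% of all targets dimmer. On every array it lay below the 75th percentile of reverse strand targets (9.87), so it is not shown to lie above background. The interval leaves out a change in signal as large as that of the longer gsc target, but this may understate a change in RNA. Of the paralogs, nog2 and nog3 had differences of -0.05 and -0.05 (limma adjusted p = 0.948 and 0.952). Both were dim, with 10.8% and 28.4% of all targets dimmer. Their levels lay below the median of reverse strand targets (7.26), so they hold little information on these genes.

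The largest difference of the 11 belonged to sp5l, on Zv7 chromosome 23 from 26679023 to 26682082. Its level was 10.24, 11.09 and 10.98 on control arrays and 12.57, 12.43 and 13.40 on morpholino arrays (log2, replicates 1 to 3). Every morpholino array exceeded the highest control by more than 1 log2 unit. Raw intensities showed the same separation, from 1294 to 2237 in control and from 5299 to 11401 in morpholino embryos. The difference was 2.03 (SE 0.33, 95% interval 1.24 to 2.82), with limma adjusted p = 0.0796, which misses the threshold of 0.05. In the authors' deposited value table it was 2.29 with adjusted p = 0.0234 in the same test, and it also passed with median scaling (0.0254), with the arrays centred on reference genes (0.0214) and with targets under the 25th percentile left out (0.0361). For morpholino replicate 3 alone, the array numbered in the range of the controls, the difference from the control mean was 2.63. This value rests on 1 morpholino array, so its spread in that group is unknown. The probes of this target were uneven, with a coefficient of variation from 0.802 to 1.056. The call did not pass without any 1 of the arrays (adjusted p from 0.14 to 0.206). The design gave this target no name of its own, and it was named by a map marker on its own chromosome that is a synonym of sp5l. Its paralog sp5a had a difference of 0.50 (SE 0.27, adjusted p = 0.615), with levels that overlapped. On every array sp5a lay below the 75th percentile of reverse strand targets (9.87), so it is not shown to lie above background.

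The target of tob1a, on Zv7 chromosome 3 from 11464524 to 11468191, was bright, with 98.5% of all targets dimmer. Its level was 13.93, 13.92 and 13.98 on control arrays and 14.13, 14.16 and 14.15 on morpholino arrays. The arrays of each group were tight and the groups did not overlap, but the shift was small, at 0.20 (SE 0.09, 95% interval -0.01 to 0.42, limma adjusted p = 0.516). With median scaling it was 0.07 and the groups overlapped. The paralog tob1b had -0.16 (SE 0.14, adjusted p = 0.794).

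**Figure D2:**
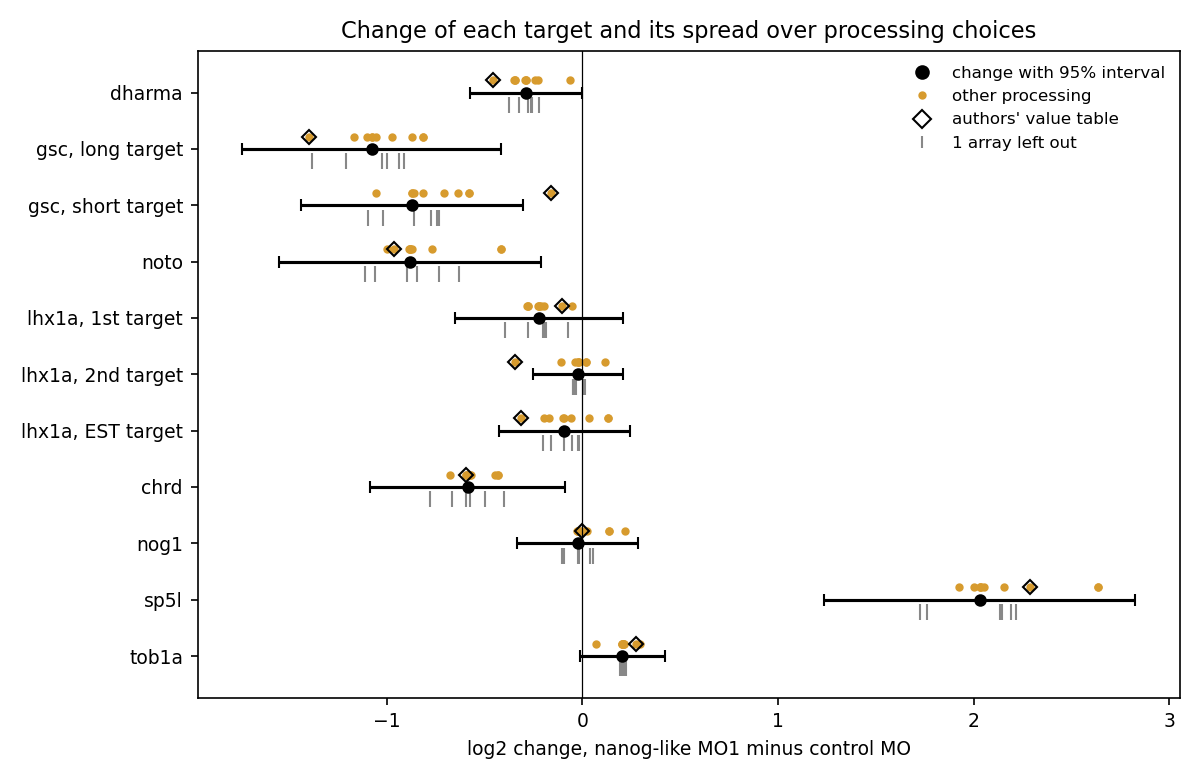
Difference in log2 intensity, nanog-like MO1 minus control MO, for the 11 targets, as black points with 95% intervals from the limma fit; orange dots are other processing choices, open diamonds the authors' value table and grey ticks fits without 1 array. Every value for sp5l lies between 1.73 and 2.63 and every value for the longer gsc target between -1.40 and -0.81, while those of nog1 lie on both sides of 0.

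The levels of several organizer genes correlated over the 6 arrays. Control replicate 1 had the lowest of the control levels for 7 of the 11 targets, among them dharma, both gsc targets, noto, chrd and sp5l. It was also the lowest control for vox, bambia, krt4 and hnf4a, though not for tbx16 or wnt8a. This order is therefore not particular to organizer genes, and its share over all targets was not counted. Over the 6 arrays the level of gsc correlated with those of chrd (r = 0.959), dharma (r = 0.913) and noto (r = 0.910), less with nog1 (r = 0.482) and lhx1a (r = 0.323), and inversely with tob1a (r = -0.809) and sp5l (r = -0.614). These are descriptions over 6 arrays that share the group difference. Within the morpholino arrays the genes did not all follow each other: from replicate 1 to 3 dharma fell (7.44, 7.36 and 7.31) while noto rose (11.34, 11.86 and 12.30). Differences between genes within an array do not depend on how arrays are scaled to each other by a constant. The background correction and quantile normalization used here are not such constants, and the pairs were taken under this processing only. The level of sp5l minus that of gsc was 1.56, 1.48 and 1.42 on control arrays and 4.47, 4.38 and 4.93 on morpholino arrays. The levels of sp5l and gsc kept almost the same ratio on the 3 control arrays, although each of them varied between those arrays, and the ratio was larger by 3.11 (SE 0.18, log2) in morpholino embryos. A 2-sided exact permutation test gave p = 0.1, the smallest that 3 against 3 arrays allow. These genes had the highest and lowest differences of the 11 targets, each without overlap. The separation of their ratio was thus fixed in advance and adds no support.

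The repressor Vox is known to hold gsc and chrd down outside the organizer, and vox fell by 3.05 on the log2 scale (SE 0.21, limma adjusted p = 0.00305). Relative to vox within each array, gsc was higher by 1.97 (SE 0.20), chrd by 2.46 (SE 0.24) and noto by 2.17 (SE 0.20) in morpholino embryos. These ratios follow from the larger difference of vox and are given as values. Relative to their paralogs, sp5l was higher by 1.53 (SE 0.45) against sp5a and tob1a by 0.37 (SE 0.13) against tob1b, both without overlap, and nog1 by 0.02 (SE 0.14) against nog3, with overlap. Each of these had exact permutation p = 0.1 except nog1 against nog3, at 0.9. Since 0.1 is the smallest p that the 20 splits of the arrays allow, no pair could pass the threshold used for limma. Over the 7 pairs compared, Benjamini-Hochberg adjustment gave 0.117 for the first 6 and 0.9 for the last. The pairs were also chosen with their values known, so no conclusion is drawn from these p-values. Since nog3 was dim, its pair with nog1 holds little information.

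**Figure D3:**
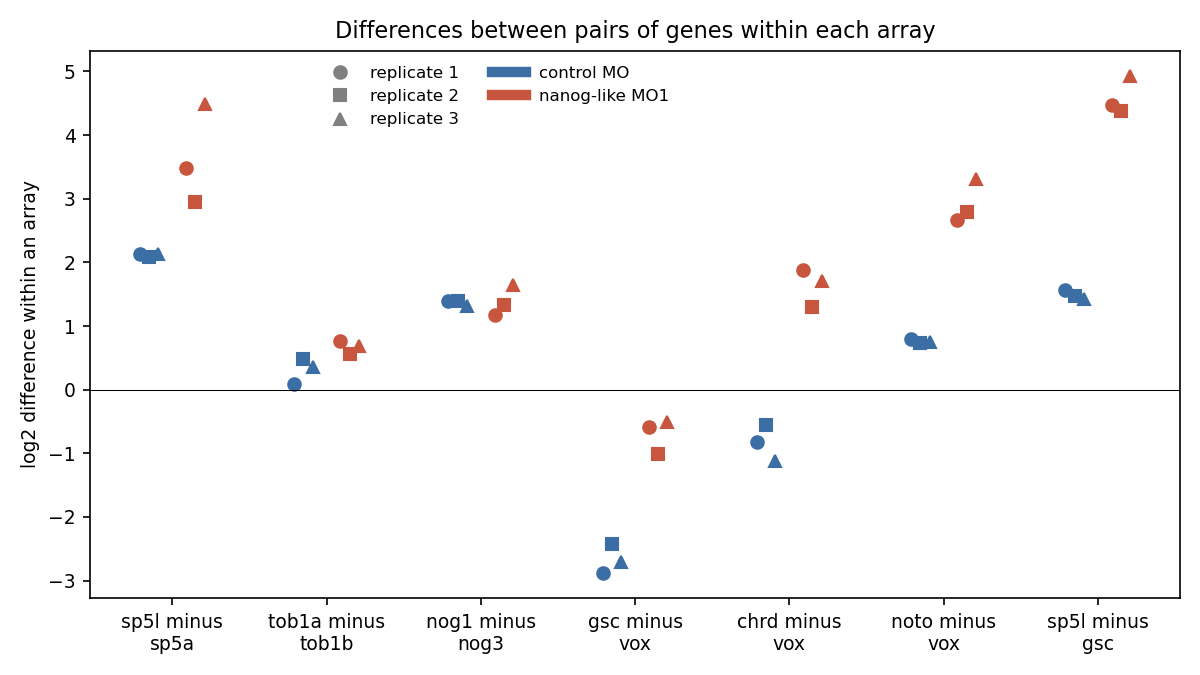
Difference in log2 intensity between 2 genes within each array, for 3 control MO arrays (blue) and 3 nanog-like MO1 arrays (red), with marker shapes for replicate numbers. The sp5l minus gsc values lie between 1.42 and 1.56 in control and between 4.38 and 4.93 in morpholino embryos, and the nog1 minus nog3 values overlap.

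Other genes of the organizer and axial mesoderm, a list of 30 of which 27 were measured, changed in both directions. Of these 27, 2 rose, 1 fell and 24 did not pass, against 0.647% of all targets that passed in either direction. Their median difference was -0.05, against -0.25 over the 8 genes described above and -0.01 over all targets. Those that rose were foxa2, a forkhead factor gene of axial mesoderm and endoderm, by 1.82 (SE 0.24, limma adjusted p = 0.0383), and lft1, which encodes a Nodal antagonist, by 1.34 (SE 0.19, adjusted p = 0.0461). The gene that fell was cyp26a1, the gene of a retinoic acid-degrading enzyme, with a difference of -2.53 (SE 0.22, adjusted p = 0.00683). Of the others, the largest differences were those of otx2b, a head homeobox gene (-1.91, SE 0.32, adjusted p = 0.087), foxb1a (0.93, SE 0.24, adjusted p = 0.25) and foxd5 (-0.70, SE 0.26, adjusted p = 0.431). The Wnt antagonist gene dkk1b had 0.39 (SE 0.12, adjusted p = 0.323). Levels of otx2b and dkk1b lay below the 75th percentile of reverse strand targets (9.87) on every array, so the sizes of their differences are uncertain. The calls of foxa2 and lft1 were lost without any 1 of the 6 arrays (adjusted p from 0.0777 to 0.123 and from 0.0533 to 0.18), and that of cyp26a1 without control replicate 3 (0.0511). The counts depend on which genes were listed: the mesoderm gene tbxta, which rose by 1.26 (limma adjusted p = 0.0401), was not on the list.

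Differences for genes of the Wnt pathway that sets the dorsal side ran from -0.75 (dact1) to 0.52 (cby1). Of 26 listed, 21 were measured, and 0 passed in either direction by limma. At an unadjusted p under 0.05 the counts were 2 lower and 0 higher, a share close to the 10.3% of all targets. Their median difference was -0.06. The gene of beta-catenin, ctnnb1, had 0.05 (SE 0.11), the Tcf repressor gene tcf7l1a -0.12 (SE 0.11) and axin2, a feedback target of Wnt signalling, 0.17 (SE 0.12). The largest differences were those of dact1, which encodes a modulator of Dishevelled (-0.75, SE 0.22, adjusted p = 0.309), wnt8a (-0.64, SE 0.21, adjusted p = 0.369) and cby1 (0.52, SE 0.27, adjusted p = 0.602). These are transcript levels and hold no measure of nuclear beta-catenin.

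On the ventral side, 13 of 16 listed genes were measured. Of these, 4 fell, 1 rose and 8 did not pass, against 0.647% of all targets that passed in either direction. The list was chosen with earlier results of these data known, and its median difference was -0.64. Beside vox, those that fell were tbx16, a T-box gene of mesoderm, bambia, a BMP pseudoreceptor gene, and gata3, a zinc finger gene of ventral ectoderm, with differences of -4.15, -2.05 and -1.87 (limma adjusted p = 0.00164, 0.00709 and 0.0461). The gene that rose was cdx4, a caudal homeobox gene, by 1.49 (SE 0.19, adjusted p = 0.033). The largest of the others were vent (-1.16, SE 0.20, adjusted p = 0.0995), bmp2b (-0.85, SE 0.15, adjusted p = 0.0999) and wnt8a again. Levels of cdx4 and vent lay below the 75th percentile of reverse strand targets (9.87) on every array, so the sizes of their differences are uncertain. The calls of vox and tbx16 held without each array in turn, that of bambia was lost without control replicate 3 (adjusted p = 0.0511), that of gata3 without every array but control replicate 1 (up to 0.18), and that of cdx4 without every array but control replicate 2 (up to 0.143). The lower ends of the 95% intervals of gsc, chrd and noto, at -1.74, -1.08 and -1.55, did not reach that of vox, which ran from -3.55 to -2.55.

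**Figure D4:**
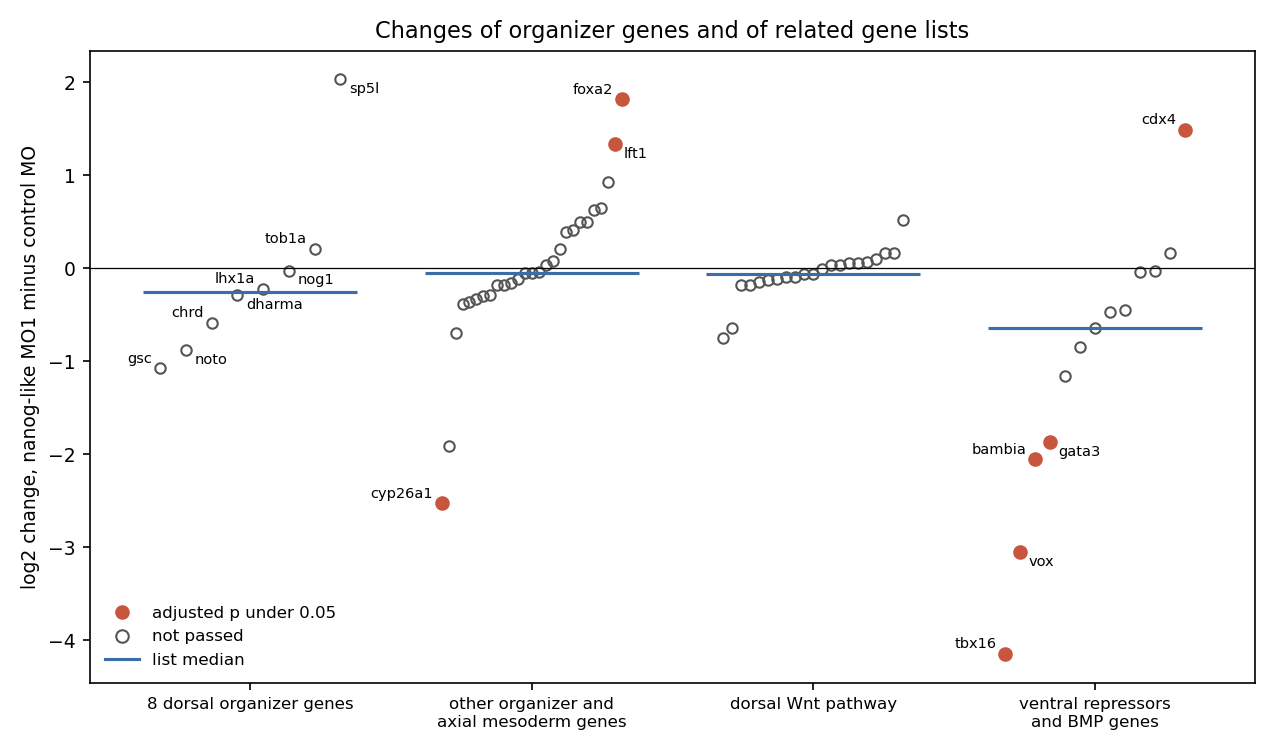
Difference in log2 intensity, nanog-like MO1 minus control MO, of the 8 dorsal organizer genes (brightest target each) and of 3 related lists, sorted within each list; filled red points passed limma at an adjusted p under 0.05 and blue lines are list medians. The 8 organizer genes have no filled point, and the ventral list has the lowest median, at -0.64.

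In zebrafish dharma is also transcribed in the yolk syncytial layer, a syncytium between yolk and blastoderm, and markers of this layer had lower levels in morpholino embryos. Of 4 markers listed, 3 were measured and all 3 fell: mxtx2 from 12.01 to 9.32, gata6 from 9.06 to 6.68 and hnf4a from 9.27 to 6.27 (log2 means, limma adjusted p = 0.0444, 0.0206 and 0.0157). These calls were lost in most fits without 1 array, with adjusted p of up to 0.183, 0.11 and 0.0895 in the same order. That of mxtx2 held only without morpholino replicate 2 and that of gata6 only without control replicate 1. That of hnf4a held only without 1 or the other of these arrays. Levels of gata6 and hnf4a lay below the 75th percentile of reverse strand targets (9.87) on every array, so their sizes are uncertain. The difference of hnf4a was -2.43 without background correction and -3.78 with an offset of 16. Of the 4 enveloping layer markers krt4, krt5, krt18a.1 and cldne, 0 passed, with adjusted p from 0.373 to 0.947. Of all targets, 0.647% passed in either direction. The difference of dharma itself did not pass (limma adjusted p = 0.48), and any part of these layers in it was not tested.

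The named genes most like each organizer gene were taken as the 3 with the highest Pearson correlation over the 6 arrays, out of 6445 candidates. For sp5l they were foxa2 (r = 0.995), tbxta (r = 0.993), the Brachyury gene of early mesoderm, and fam110a (r = 0.990). Of these, foxa2 and tbxta rose (limma adjusted p = 0.0383 and 0.0401), though neither passed without any 1 of the arrays (up to 0.123 and 0.164). For tob1a they were her3, akr1b1.2 and arl8ba, at 0.991, 0.990 and 0.990, and her3 and akr1b1.2 rose (limma adjusted p = 0.00519 and 0.00677). A share of 0.647% of all targets passed in either direction. Levels of sp5l and tob1a did not overlap between the groups, so genes picked for correlating with them tend to differ too. These calls thus follow in part from the choice and add no support. The list for gsc was rgs12b, sec61g and dact1, at 0.994, 0.992 and 0.989. The lists for chrd, noto and dharma were led by b3gntl1, eefsec and eif2b3, at 0.996, 0.989 and 0.990. Values as high arose for genes whose groups overlapped, with 0.989 for lhx1a and phykpl and 0.992 for nog1 and atf7b, so among this many candidates such a correlation sets no gene apart.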

How the data were processed

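RNA of 3 control and 3 morpholino samples was labelled with Cy3 by Nimblegen, per the labels' protocols. The authors' file for an array gives a linear intensity per target, the mean of its probes, with counts of probes before and after a filter and the probes' coefficient of variation, per the file headers. How probes were filtered is not stated there. A value table of the same arrays, deposited by the authors, holds RMA intensities per the submitters' processing notes; its centring stays unknown.

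Intensities were background corrected with normexp (offset 50), quantile normalized and taken to log2. No detection call per target was used. All 38489 targets were tested for a difference between the groups, 2-sided and with no covariate, by lmFit and eBayes of limma 3.58.1 (R 4.3.3), at a Benjamini-Hochberg adjusted p under 0.05. Intervals of 95% use 6.49 moderated degrees of freedom. The fit was tested on simulated data. Targets were named through a RefSeq gene table (GRCz12tu), from which no coordinate was used; 15154 had a symbol, and the brightest target stood for a gene in the lists. Of 2180 targets named both by symbol or accession and by map marker, 92.0% gave the same gene. All 10 member targets with a position lie on the chromosome that this table gives. Coordinates are the array design's, on Zv7, whose scaffold names the design uses; where probes lie within a transcript was not analysed here. Members, lists and the rule for named genes (all members, list genes that passed, the 3 largest others, and the 3 most correlated) were chosen with earlier results of these data known. Of the list genes, those without a named target were not analysed here. Alternatives were other background corrections and scalings, the authors' table, a filter on dim targets, replicate and array number terms, and leaving out each array.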

Additional observations from a re-analysis of the deposited data

How the results depend on the processing

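Across 16 alternatives, 15 for the lhx1a targets that the dim filter removed, the 5 targets of dharma, gsc, noto and chrd stayed lower and sp5l and tob1a stayed higher. The brightest lhx1a target, whose groups overlapped, stayed lower in all 16 too, so a kept sign does not set a target apart. The dim filter and the replicate block left each difference unchanged, so its sign could not change there. Both array number settings are the same fit. The count of organizer targets called higher was 1 (sp5l) with median scaling, centring on reference genes, the authors' value table and the dim filter, and 0 in the others; the count called lower was 0 in all. Of 16 reference genes listed, 12 were measured: actb1, actb2, gapdh, rpl13a, tbp, hprt1, ppiaa, sdha, rplp0, b2m, rps18 and slc25a5. Their median difference in the main fit was -0.12. Without overlap, 4 were lower (7.97% of all targets) and 0 higher (7.36%). Centring takes their mean as unchanged, which moves other targets up, and whether they are stable here was not tested. Median scaling moved the median of all targets to -0.10 from -0.01, and centring on reference genes moved it to 0.13. Relative to that median the shift of dharma under centring (-0.07) is larger. Non-overlap under centring held for the longer gsc target, sp5l, tob1a and the dim lhx1a target on chromosome 15, the last of these higher, while chrd, noto, dharma and the shorter gsc target overlapped; of all targets 16.1% were higher and 2.45% lower there without overlap.

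Over all targets, 99 were higher and 150 lower. Higher counts were 156 with centring, where 136 were lower, and 163 in the authors' table, where 206 were lower. With a term for the array number range, or inside the range alone, which is the same fit and rests on 1 morpholino array, 0 targets passed in either direction. Leaving out 1 array gave 35 to 66 higher and 60 to 119 lower. Of the related lists together, 3 genes were higher and 5 lower; this became 1 higher without background correction, 0 and 0 with the range term, and 0 to 1 higher and 2 to 6 lower without 1 array, the fewest lower without control replicate 3. The cause was not tested.

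Over all targets, replicate numbers showed no clear pairing of the samples. Deviations of same-numbered arrays correlated at -0.01, -0.10 and 0.17, and of the control arrays replicate 3 alone correlated best with its own number. With the replicate block 46 targets were higher and 88 lower, 1 and 3 genes of the lists were higher and lower, and sp5l had adjusted p = 0.0932. Levels of noto rose with replicate number in both groups, and the block gave it SE 0.13 and limma adjusted p = 0.134. The shorter gsc target had SE 0.14 and adjusted p = 0.171. For chrd and dharma the block raised the SE, to 0.22 and 0.14 (adjusted p = 0.470 and 0.593).

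Sign changed only for differences near 0. For the dim lhx1a targets these were 0.033 (tag) and 0.12 with centring, 0.13 (tag) and 0.021 with the range term, and for the other the values without 1 array ran from -0.049 to 0.012. For nog1 they were 0.025 with cyclic loess, 0.22 with centring, 0.14 with the range term, and from -0.10 to 0.056 without 1 array. For nanog they were 0.061 with centring and from -0.048 to 0.019 without 1 array. The offset understates changes of dim targets: with an offset of 16 the shorter gsc target had -1.05 and dharma -0.35.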
